A study of Mus musculus with 219 samples.

Results

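The transcripts followed here were those of 10 heat shock and chaperone genes of the mouse, taken by symbol from the 32285 genes of the count tables: Hspa1a, Hspa1b, Hspa8, Hsph1, Dnajb1, Hsp90aa1, Hsp90ab1, Hspd1, Hspe1 and Hsf1. All 10 symbols were found, each at 1 gene. They were measured in single blastomeres of 2-cell embryos and in single blastocysts, after oocytes had been fertilised by intracytoplasmic sperm injection (ICSI) at a chosen place. The sperm head was deposited contralateral to the meiotic spindle (the vegetal, or V, pole), ipsilateral to it (the animal, or A, pole) or equatorially, and the study asked whether the site of sperm entry shapes the difference between the first sister blastomeres and what becomes of them.

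Molecular chaperones bind unfolded proteins and help them to fold, to assemble or to be destroyed. Heat shock factor 1 (HSF1) is the transcription factor that raises their transcription when unfolded proteins accumulate, by binding repeats of GAA and TTC (heat shock elements) in their promoters. In the mouse, HSF1 is stored in the oocyte, and the inducible HSP70 genes Hspa1a and Hspa1b are known as some of the earliest genes that the embryo transcribes from its own genome, without any heat. HSP70 proteins work with J-domain proteins, which deliver substrates and stimulate ATP hydrolysis, and with exchange factors such as HSPH1, which release ADP. HSP90 dimers take on later folding steps of kinases, receptors and other clients, and HSPD1 with its lid HSPE1 forms the folding chamber of the mitochondrial matrix.

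Every oocyte came from B6C3F1 females and every sperm from CD1 males, and the embryos were cultured in KSOM medium with amino acids. The libraries belonged to 3 kinds of embryo. The 2-cell embryos (Theiler stage 2) were bisected and both sister blastomeres were sequenced. The intact blastocysts (Theiler stage 5) grew from undivided embryos. The twin blastocysts (also Theiler stage 5) grew from the separated sister blastomeres of 1 embryo, each in its own well. The labels give neither the ICSI session nor the oocyte donor of an embryo, so that embryos of a group may share either, and p-values measure the spread between these embryos. No embryo fertilised in another way, and no unmanipulated embryo, was analysed here. Counts of sisters were added, which makes the embryo the replicate, and gave 55 2-cell embryos (21 contralateral, 21 ipsilateral, 13 equatorial), 19 twin pairs (6, 7 and 6) and 31 intact blastocysts (11, 8 and 12).

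The libraries held 360474 to 2100561 counts per blastomere, 713410 to 2161062 per twin and 234099 to 1254428 per intact blastocyst. Levels are given as CPM, the count of a gene scaled to a common total per embryo, and say nothing of the amount of RNA in it. The mitochondrial share of the counts was 1.03% to 3.03% in contralateral, 1.10% to 2.03% in ipsilateral and 1.01% to 1.76% in equatorial 2-cell embryos, and the median number of detected genes was 12070, 12100 and 11390. Of the intact blastocysts, 7 had fewer than 10000 detected genes (4 contralateral, 3 equatorial). The stage labels matched the maternal, 2-cell activation and trophectoderm markers. The sums of other markers overlapped between 2-cell embryos and intact blastocysts. They were 81.95 to 305.8 and 24.04 to 276.8 CPM for epiblast markers, and 24.69 to 107.9 and 58.48 to 569 CPM for primitive endoderm markers. The 5 maternal markers, Gdf9, Bmp15, Zp3, Dppa3 and Nlrp5, summed to 2451 to 3938 CPM in 2-cell embryos and to 0 to 402.5 CPM in intact blastocysts. All 8 markers of 2-cell genome activation had counts in 2-cell embryos (451.6 to 1516 CPM in sum) and the sum stayed between 0 and 14.5 CPM in blastocysts, while trophectoderm markers summed to 2957 to 6377 CPM in intact blastocysts and to 31.1 to 216.5 CPM in 2-cell embryos. Of the 5 cumulus cell markers, Ptx3, Has2, Tnfaip6, Ptgs2 and Vcan, the sum reached at most 46.6 CPM in any 2-cell embryo, with Ptx3 at 0 in both polar groups and Ptgs2 at 0 in the equatorial group.

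Hspa1a and Hspa1b encode the same inducible HSP70 protein and sit side by side on the minus strand of chromosome 17 (GRCm38; Hspa1a at chr17:34969190-34972156, Hspa1b at chr17:34956436-34959238). They are shown first because they are the heat shock genes of early genome activation, and because their promoters are nearly the same. The RefSeq promoter table (GRCm38.p6) holds 250 bases before each start site, here on the minus strand, chr17:34972157-34972406 for Hspa1a and chr17:34959239-34959488 for Hspa1b. The capitals mark the facing pair of heat shock units that a search for GAANNTTC or TTCNNGAA on either strand found.
Hspa1a: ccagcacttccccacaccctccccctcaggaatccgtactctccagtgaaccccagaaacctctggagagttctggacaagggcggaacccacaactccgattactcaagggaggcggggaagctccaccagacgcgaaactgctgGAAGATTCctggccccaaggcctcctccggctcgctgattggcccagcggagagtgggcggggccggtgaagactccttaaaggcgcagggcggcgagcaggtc
Hspa1b: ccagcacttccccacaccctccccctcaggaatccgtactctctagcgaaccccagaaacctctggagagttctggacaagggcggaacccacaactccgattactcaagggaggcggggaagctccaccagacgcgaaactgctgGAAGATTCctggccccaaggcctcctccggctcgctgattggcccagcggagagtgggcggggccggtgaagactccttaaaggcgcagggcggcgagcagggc
The windows were 98.8% identical. With positions counted as bases before the start site and the base of Hspa1a written first, they differed by C207T, T204C and T2G, none of which touches the capitals. The pair GAAGATTC lay at bases 104 to 97 before the start site in both, and 12.8% of 32841 promoter windows of this length hold at least 1 such pair, so that the match is a description only.

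The chaperonin genes Hspd1 and Hspe1 share a promoter between them on chromosome 1, head to head. It is shown because its run of units is the longest among the members that are in the promoter table. The window before the start of Hspe1 (plus strand, chr1:55087898-55088147) read as follows, with capitals for 3 or more alternating units.
Hspe1: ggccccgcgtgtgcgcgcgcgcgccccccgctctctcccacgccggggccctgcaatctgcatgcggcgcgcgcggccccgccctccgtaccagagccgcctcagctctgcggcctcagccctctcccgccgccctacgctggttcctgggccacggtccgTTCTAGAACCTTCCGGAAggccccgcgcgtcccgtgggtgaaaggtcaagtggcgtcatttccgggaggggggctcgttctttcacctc
The same run, read on the other strand, began 144 bases before the second start site of Hspd1, and 89 bases before that of Hspe1. Runs of at least 3 alternating units with a spacing of NN stood in 0.466% of all windows. Hsph1 held 1 pair, TTCTCGAA, and Dnajb1 held none. Hspa8, Hsp90aa1, Hsp90ab1 and Hsf1 were not in the table.

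Counting could blur some members. Of all 100-base words in the transcripts of Hspa1a, 47.1% also occurred in Hspa1b, and 49.9% the other way round, so that reads from these parts cannot be told apart and both genes are also given as a sum. Words shared with other genes, mostly pseudogenes, made up 38% of Hsp90aa1, 28.5% of Hspa8, 23.9% of Hspd1 and 10.98% of Hspe1, and none of Hsp90ab1, Hsph1, Hsf1 or Dnajb1. Hspd1 and Hspe1 overlap at their 5' ends, and the counting did not use strand. The deposited counts had identical reads collapsed, which caps the count of a strongly expressed gene. The highest count in any library was 1.23 per exonic base, for Hsp90ab1 in a twin, and at most 0.46 for every member other than Hsp90ab1 and Hsp90aa1, against 7.26 for the highest of all genes.

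At the 2-cell stage the HSP90 genes were the most abundant members and Hspa1a the least. Per length (TPM, reads per length of the gene scaled to a fixed sum, mean ± SD, n = 55), Hsp90ab1 stood at 756 ± 196 and Hsp90aa1 at 618.9 ± 118.1. The mitochondrial Hspe1 followed with 374 ± 55.9 TPM, Hspd1 with 201 ± 44.8 and Hspa8, the constitutive HSP70 of the cytosol, with 165 ± 38.3. Dnajb1, the J-domain partner of inducible HSP70, had 146 ± 45.1 TPM. Hsf1 (62.3 ± 20.4), Hspa1b (60.2 ± 25.6) and Hsph1 (47.9 ± 21.98) were lower still, and Hspa1a came last with 21.4 ± 13.9 TPM. At the steps from Hsp90aa1 to Hspe1, from Hspe1 to Hspd1 and from Dnajb1 to Hsf1, the mean minus 1 SD of the upper gene was above the mean plus 1 SD of the lower one. All other neighbours in this order lay within their spread of each other. TPM used the whole exonic length, although 56.5% of the words of Hspa1a and 49.9% of those of Hspa1b also occur in other genes. Reads that could not be assigned may thus make their levels too low, here and in blastocysts, and their places in the order are uncertain.

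In intact blastocysts the order had another middle. Hsp90aa1 (2101 ± 854 TPM, n = 31) and Hsp90ab1 (2060 ± 958) led again and lay within their spread of each other. Hspa8 came next with 835 ± 140 TPM, ahead of Hspd1 (477 ± 120) and Hspe1 (466.5 ± 91.9), which did not differ beyond their spread. Dnajb1 (117.5 ± 42.8) and Hsph1 (103 ± 31.9) came next. Hspa1b (32.6 ± 24.8) and Hsf1 (20.1 ± 10.3) overlapped in their spread, and Hspa1a was last with 1.07 ± 3.25 TPM.

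The comparison of 2-cell embryos with intact blastocysts asked how each member stands at the start and at the end of preimplantation development. In edgeR's quasi-likelihood test all 10 members passed an adjusted p of 0.05, 4 of them higher in 2-cell embryos (Hspa1a, Hspa1b, Hsf1 and Dnajb1) and 6 lower (Hspa8, Hsph1, Hsp90aa1, Hsp90ab1, Hspd1 and Hspe1). The background was high, because 77.7% of the 12645 genes tested passed, 46.1% higher and 31.5% lower. The median log2 fold change of the members was -0.62, against 0.40 for all genes tested. A 2-cell embryo is a sum of 2 libraries and an intact blastocyst is 1. Against the 19 twin pairs, which are also sums of 2 libraries, all 10 members passed in the same direction. Of the 55 2-cell embryos only 13 were on plate 2. The column labels name no plate for blastocysts, which were taken as plate 2. The study places them in its second dataset, with single-end reads. Plate was a term in the fit, and its estimate came from the 2-cell embryos alone. Since a blastocyst was sequenced whole, fewer cells of a type and less RNA per cell cannot be told apart in it either.

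Hspa1a, an inducible HSP70, was counted in 54 of 55 2-cell embryos and was mostly undetected in blastocysts. In 2-cell embryos it ranged from 0 to 67.2 CPM. In intact blastocysts it was at 0 in 24 of 31, where a count of 0 allows up to 2.61 to 12.02 CPM, and its highest level was 17.04 CPM. Every 2-cell embryo other than the 1 at 0 was above the median of the intact blastocysts, and 25 were above the highest of them, yet the groups overlapped. The fitted log2 fold change was 4.07 (SE 0.50, adjusted p = 5.05e-12). In the fit with 2-cell embryos of plate 2 only, not every member was tested. Hspa1a had a mean of 20.4 CPM in the 42 2-cell embryos of plate 1 and 14.9 CPM in the 13 of plate 2. Over all embryos of a kind, the pooled level was 18.6 CPM in 2-cell embryos (2737 counts), 0.949 CPM in intact blastocysts (21 counts) and 0.206 CPM in twins (9 counts). Single libraries held 11 of the 21 and 5 of the 9 counts, and without them the pooled level was 0.466 CPM in intact blastocysts and 0.0937 CPM in twins.

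**Figure D1:**
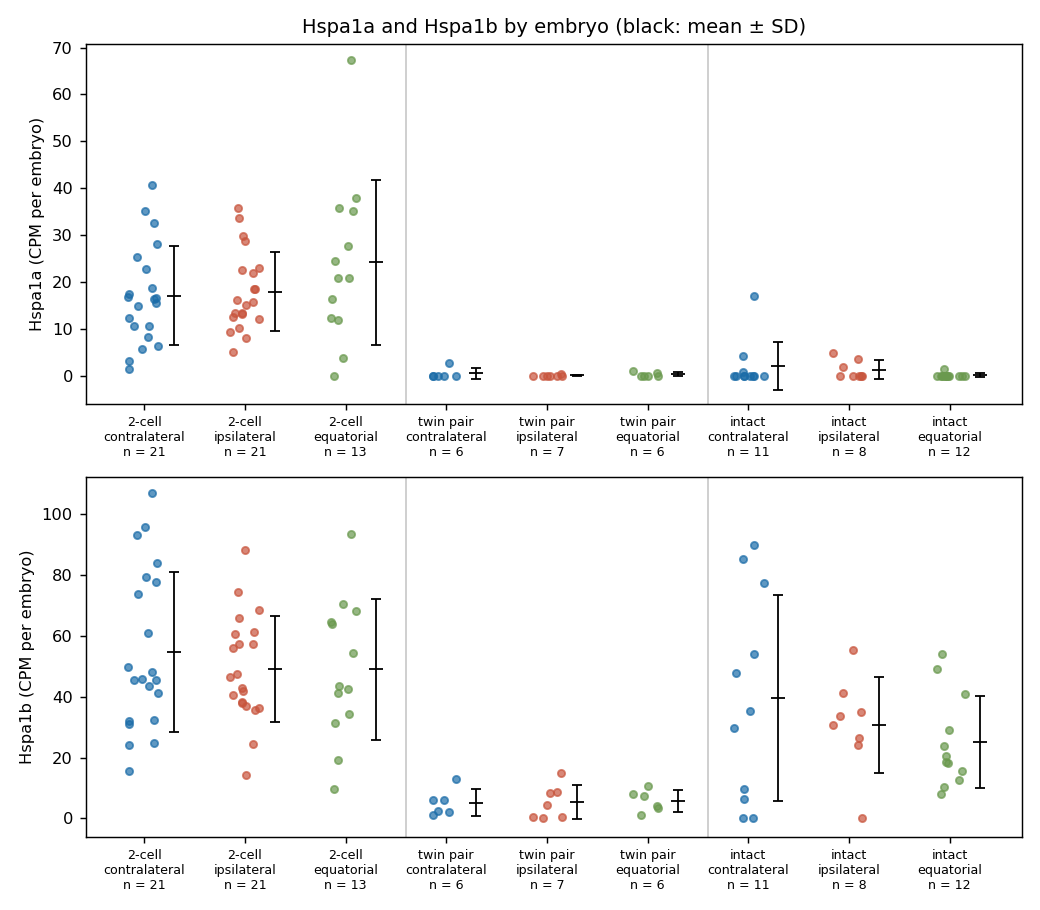
Levels of Hspa1a (upper panel) and Hspa1b (lower panel) in CPM in each embryo (points) by kind of embryo and ICSI site, with the mean ± SD in black. Hspa1a is at 0 in 15 of 19 twin pairs and 24 of 31 intact blastocysts, and Hspa1b is lower in twin pairs (median 4.39 CPM) than in intact blastocysts (median 28.97 CPM).

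Its neighbour Hspa1b had the higher median in each kind of embryo and a smaller fold change. It had 9.57 CPM in the lowest, 45.8 in the median and 106.95 in the highest 2-cell embryo. In intact blastocysts the lowest level was 0 (3 embryos), the median 28.97 and the highest 89.8 CPM. The groups overlapped widely, with 48 of 55 2-cell embryos above the median of the blastocysts, and the log2 fold change was 0.87 (SE 0.30, adjusted p = 0.00616). With library size and detected genes as covariates the difference was 0.08 (adjusted p = 0.936). With the counts of both copies added, the fold change was 1.21 (SE 0.28, adjusted p = 6.65e-05), and 0.49 (adjusted p = 0.578) with the same covariates.

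The share of the pair also differed between stages. Hspa1a had 26.7% of the counts of both genes in 2-cell embryos, 2.81% in intact blastocysts and 3.41% in twins. Without the library of the highest Hspa1a count the share was 26.5% in 2-cell embryos, 1.47% in intact blastocysts and 1.55% in twins. In 54 of 55 2-cell embryos Hspa1a was below Hspa1b. Across the 55 2-cell embryos the levels of both copies had a Spearman correlation of 0.43, over libraries that share stage and chemistry. Ranked over 13140 genes, Hspa1b was the 40th most alike to Hspa1a, and Hspa1a the 36th most alike to Hspa1b. The 5 genes most alike to Hspa1b were Hspa2, a further HSP70 gene, with a Spearman correlation of 0.66, then Brsk2 (0.59), Rpl37 (0.56), Nabp1 (0.56) and Rpl8 (0.56). Neither Hspa1a nor Hspa1b shared a 100-base word with Hspa2. The genes most alike to Hspa1a were Snx18 (0.52), Pdlim2 (0.51), Zfp954 (0.51), Zfp217 (0.49) and Nectin2 (0.49).

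Hsf1, the gene of the factor itself, was the other member with a clearly higher level in 2-cell embryos. It ranged from 67.3 over a median of 130 to 236 CPM there, and from 4.01 over 45.4 to 116.8 CPM in intact blastocysts. All 55 2-cell embryos were above the median of the blastocysts and 35 above the highest blastocyst. The log2 fold change was 1.76 (SE 0.18, adjusted p = 2.07e-15). Dnajb1 differed little, with medians of 140 and 129.05 CPM, a log2 fold change of 0.42 (SE 0.16, adjusted p = 0.0146) and 20 of 55 2-cell embryos below the median of the blastocysts. Without the 7 intact blastocysts under 10000 detected genes, Dnajb1 no longer passed (0.24, adjusted p = 0.143).

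The other 6 members went the other way, and for 4 of them no 2-cell embryo reached any intact blastocyst. Hspa8 had 89.3 to 309 CPM in 2-cell embryos (median 215) and 812 to 1620 CPM in intact blastocysts (median 1230). Hsp90aa1, the inducible HSP90, had 513 to 1178 CPM (median 733) against 1876 to 7227 CPM (median 2483). Hsp90ab1, the constitutive HSP90, had 477 to 1122 CPM (median 644) against 1208 to 5610 CPM (median 1737). The subunit of the mitochondrial chamber, Hspd1, had 95.6 to 236 CPM (median 158) against 287 to 797 CPM (median 405). Such separation was found for 15.3% of all genes tested. The log2 fold changes were -2.07 for Hspa8 (SE 0.12, adjusted p = 1.29e-30), -1.69 for Hsp90aa1 (SE 0.13, adjusted p = 1.15e-21), -1.42 for Hsp90ab1 (SE 0.15, adjusted p = 9.25e-15) and -1.02 for Hspd1 (SE 0.12, adjusted p = 2.30e-13).

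The exchange factor gene Hsph1 ranged from 17.3 to 243 CPM in 2-cell embryos (median 95.8) and from 64.1 to 418 CPM in intact blastocysts (median 263). The groups overlapped, but all 55 2-cell embryos were below the median of the blastocysts (log2 fold change -1.13, SE 0.21, adjusted p = 1.23e-06). Hspe1, the lid of the chamber, was nearer to level, with medians of 168 and 235 CPM and a log2 fold change of -0.22 (SE 0.10, adjusted p = 0.0455). It did not pass with 2-cell embryos of plate 2 only (-0.19, adjusted p = 0.1287) or with library size and detected genes as covariates (-0.15, adjusted p = 0.613). Hspd1 and Hspe1, which share a promoter and whose proteins form 1 machine, thus had different fold changes between the stages.

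**Figure D2:**
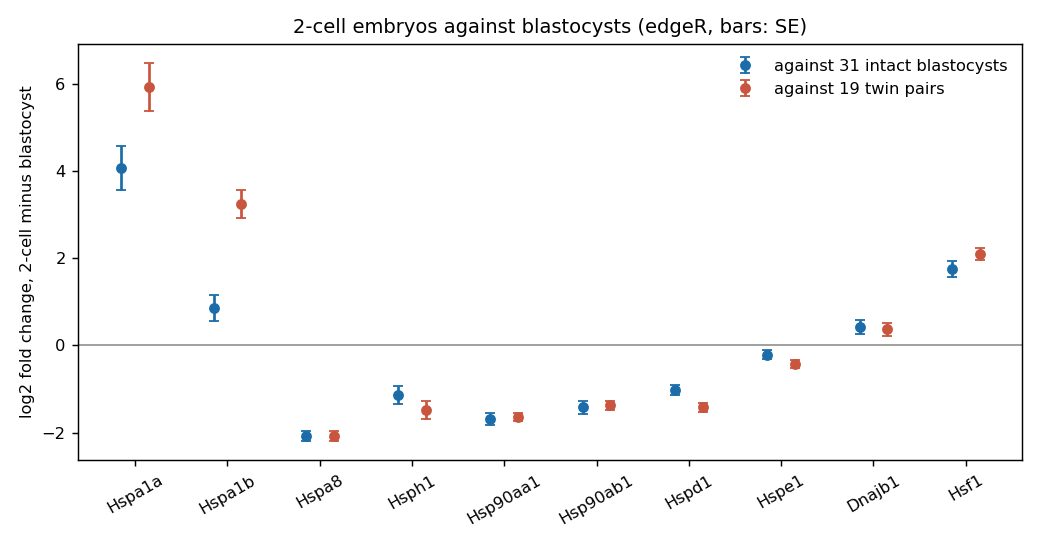
Log2 fold change of each member from edgeR, with bars of 1 SE, for 2-cell embryos against 31 intact blastocysts (blue) and against 19 twin pairs (red); the line marks no change. Hspa1b has 0.87 against intact blastocysts and 3.25 against twin pairs, and Hsp90aa1, Hsp90ab1 and Hspa8 lie below the line against both.

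Of 112 further chaperone genes in lists by family, 29 were higher and 60 lower in 2-cell embryos, against 46.1% and 31.5% of all genes tested. Of those tested, 13 passed in neither direction, and the median log2 fold change was -0.75. All 9 genes listed for the TRiC chaperonin, which folds actin and tubulin, were lower, among them Cct2 (72.4 ± 21.7 against 556.3 ± 103.3 CPM, log2 fold change -2.57). Of 27 co-chaperones 17 were lower and 9 higher, and of 32 J-domain genes 16 were lower and 11 higher. Dnajb4 (262.0 ± 96.9 against 10.7 ± 9.93 CPM, log2 fold change 5.13) and Dnajb9 (342.7 ± 78.0 against 23.4 ± 16.4 CPM, 3.99) were the leading J-domain genes on the higher side. Beside Hsf1, the heat shock factor gene Hsf5 (5.35) and Hsf2bp, a partner of HSF2 (3.16), were higher in 2-cell embryos, whereas Hsf2 itself was lower (-2.93, adjusted p = 1.02e-07). The HSP70 chaperones of the endoplasmic reticulum and of mitochondria, Hspa5 (-1.69) and Hspa9 (-1.20), were lower, as Hspa8 was. Tomm34 (3.19) and Cdc37l1 (2.26), which bind HSP70 and HSP90, were higher, and Dnajc19 (-2.21), P4hb (-1.84) and Canx (-1.23) were lower.

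The comparison of injection sites at the 2-cell stage is the one the study was built on, and both polar groups were compared with the same 13 equatorial embryos. Against them, 2 of 10 members passed in contralateral embryos, Hsp90ab1 and Hsf1, both lower, where 13.2% of the 13141 genes tested passed (7.12% higher, 6.06% lower). In ipsilateral embryos 2 of 10 passed, Hsp90ab1 and Hsp90aa1, both lower, where 6.65% of genes passed (3.43% higher, 3.22% lower). The median log2 fold change of the members was -0.19 and -0.13, against 0.00 and 0.01 for all genes tested. Between the contralateral and the ipsilateral group no member passed, and no gene did (0% in edgeR and 0 in DESeq2, with 555 genes at an unadjusted p under 0.05 in edgeR). No member, and no gene, had groups that did not overlap in any of these 3 comparisons.

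Hsp90ab1, the constitutive HSP90, was lower after both polar injections. It ranged from 477 over a median of 612 to 1020 CPM in contralateral embryos. In ipsilateral embryos it ranged from 495 over 613 to 822 CPM, and in equatorial embryos from 584 over 831 to 1122 CPM. The groups overlapped, but 19 of 21 contralateral and 21 of 21 ipsilateral embryos were below the equatorial median, and 8 and 7 were below the lowest equatorial embryo. The log2 fold changes were -0.40 (SE 0.09, adjusted p = 0.000714) and -0.41 (SE 0.09, adjusted p = 0.00199). On plate 1 alone the group means were 637 (contralateral, n = 18), 645 (ipsilateral, n = 13) and 837 CPM (equatorial, n = 11).

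Hsp90aa1, the inducible HSP90, was lower in ipsilateral embryos. Its ipsilateral levels were 549 to 896 CPM (median 664), its contralateral levels 523 to 864 CPM (median 733) and its equatorial levels 513 to 1178 CPM (median 826). The lowest embryo of the 3 groups was an equatorial one, and 19 of 21 embryos of each polar group were below the equatorial median. The log2 fold change was -0.28 in ipsilateral embryos (SE 0.08, adjusted p = 0.0215) and -0.22 in contralateral embryos, where it did not pass (adjusted p = 0.0514).

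Hsf1 was lower in contralateral embryos, with 67.3 to 224 CPM (median 101.4), against 82.6 to 236 CPM (median 156) in equatorial embryos. Ipsilateral embryos lay between them, with 73.9 to 208 CPM and a median of 138. The contralateral log2 fold change was -0.45 (SE 0.14, adjusted p = 0.0176), and 19 of 21 contralateral embryos were below the equatorial median. The mRNA level of Hsf1 says nothing of the phosphorylation, trimer formation or nuclear entry by which the HSF1 protein is controlled.

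**Figure D3:**
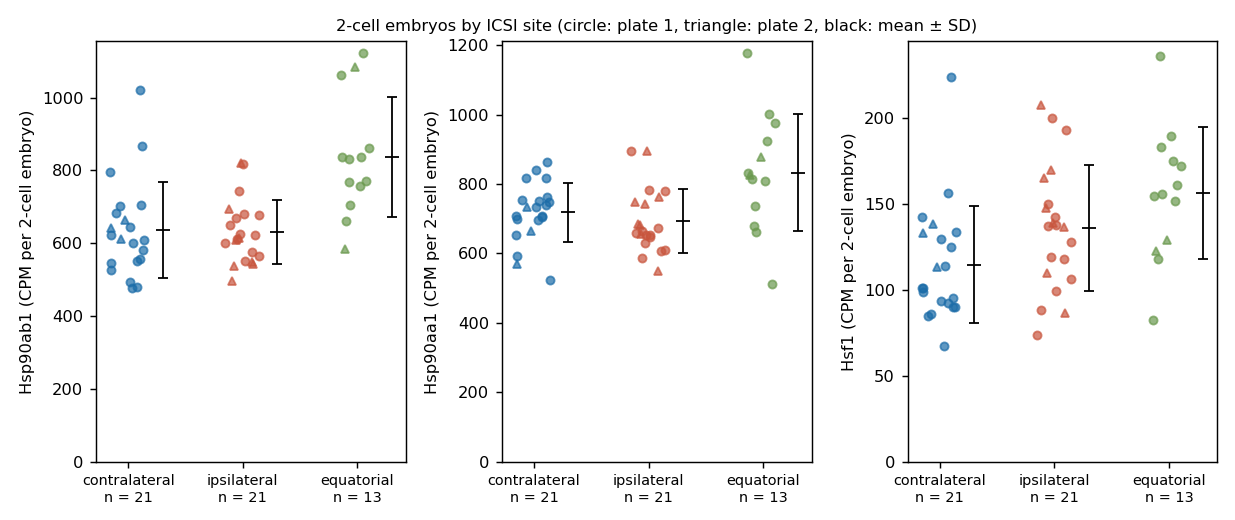
Levels of Hsp90ab1, Hsp90aa1 and Hsf1 in CPM in each 2-cell embryo (circles for plate 1, triangles for plate 2) by ICSI site, with the mean ± SD in black. Equatorial embryos lie higher for Hsp90ab1 (median 831 CPM, against 612 and 613) and Hsf1 (156, against 101.4 and 137.5), with overlap in every panel.

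Measures of library quality moved with these levels. Over the 55 embryos the Spearman correlation of Hsp90ab1 with the mitochondrial share was -0.57 and that of Hsf1 was -0.50, and Hsp90aa1 had -0.57 with the number of detected genes. Within the contralateral, ipsilateral and equatorial groups, that of Hsp90ab1 with the mitochondrial share was -0.63, -0.16 and -0.29. For Hsf1 it was -0.15, -0.48 and -0.67, and for Hsp90aa1 with detected genes -0.05, -0.53 and -0.76. With the mitochondrial share as a covariate, Hsp90ab1 still passed in contralateral embryos and Hsf1 did not (-0.29, adjusted p = 0.253). With library size and detected genes as covariates, neither HSP90 gene passed in ipsilateral embryos (Hsp90ab1 -0.30, adjusted p = 0.145; Hsp90aa1 -0.05, adjusted p = 0.859). In the 48 pairs of low mitochondrial share Hsp90aa1 did not pass in ipsilateral embryos (-0.23, adjusted p = 0.0937). With the depth covariates 98.4% of the genes called in ipsilateral embryos were higher, against 51.6% without them.

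The other 7 members did not pass in edgeR in any comparison of sites at the 2-cell stage. A p that misses the threshold does not show equal levels. Hspa1a had medians of 16.4, 15.6 and 20.8 CPM in contralateral, ipsilateral and equatorial embryos, and its highest embryo, with 67.2 CPM, and its embryo at 0 were both equatorial. Hspa1b had medians of 45.8, 46.6 and 43.6 CPM. Dnajb1 had medians of 137, 142 and 141 CPM and Hsph1 of 92.6, 101.5 and 89.8 CPM in the same order of sites. Hspa8 had 204, 220 and 205 CPM and Hspe1 176, 160 and 167 CPM, again in contralateral, ipsilateral and equatorial embryos. Hspd1 was nearest to the threshold, with 154 CPM in contralateral against 191 CPM in equatorial embryos (log2 fold change -0.26, SE 0.11, adjusted p = 0.105). The rank-sum test on added TPM called it lower there (-0.40, adjusted p = 0.0189). For the sum of both copies the log2 fold change was -0.02 (SE 0.23) in contralateral and -0.07 (SE 0.24) in ipsilateral embryos, with adjusted p of 0.976 and 0.924.

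Of the 112 further chaperone genes 99 were tested between sites. In contralateral embryos 9 were higher and 8 lower than in equatorial ones, against 7.12% and 6.06% of all genes tested. Their median log2 fold change was 0.02. In ipsilateral embryos 4 were higher and 5 lower, against 3.43% and 3.22% of all genes tested. Dnajb4 was higher in both (312.0 ± 92.6 and 268.4 ± 68.6 against 171.0 ± 81.8 CPM; log2 fold changes 0.90 and 0.60). Grpel1, the exchange factor of mitochondrial HSP70, had 1.10 and 0.93, and Hscb, a J-domain partner in iron-sulphur cluster assembly, 0.93 and 0.81. Calr, a calcium-binding chaperone of the endoplasmic reticulum, was lower in contralateral embryos (-0.58), Canx in both (-0.31 and -0.36), and Ptges3, the p23 co-chaperone of HSP90, in ipsilateral embryos (-0.35). Bag6 (-0.71) and Cct4 (-0.74) were also lower in contralateral embryos, while Manf (0.54), Pfdn4 (0.67) and Vbp1 (0.74) were higher. Tomm34 was lower in both polar groups (-0.43 in contralateral and -0.33 in ipsilateral embryos). Dnajc19 (0.67) was higher and Dnajc21 (-0.37) lower in ipsilateral embryos, and Dnajb6 was lower in both (-0.26 and -0.22). Of the 21 calls named for these genes, 11 were lost with the mitochondrial share as a covariate and 10 with the 48 pairs of low mitochondrial share. Dnajb4 passed in both comparisons under either alternative. With library size and detected genes as covariates, 61 genes were called in ipsilateral embryos and 60 of them were higher. Most of the lower calls named there thus cannot have held. Over the further genes named in all comparisons, 21 calls fell short with these covariates and 2 turned.

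In blastocysts, no member passed between sites. In twins none of the 9 members tested passed, nor did any of 10995 genes in edgeR (0% in each comparison; 728 genes contralateral against equatorial, 426 ipsilateral against equatorial and 754 contralateral against ipsilateral at an unadjusted p under 0.05; DESeq2 called 6, 1 and 1 genes). Hsp90aa1 was nearest, with 2456 to 3312 CPM (median 2892) in contralateral twin pairs, 2260 to 2476 CPM (median 2376) in ipsilateral and 2074 to 2672 CPM (median 2259) in equatorial pairs. The contralateral level was thus the higher one in twins, with a log2 fold change of 0.36 (SE 0.08, adjusted p = 0.256) from which its 2-cell value of -0.22 differed by -0.55 (adjusted p = 0.322 for the interaction, in which no member passed and 0.179% of 16731 genes did, against 0.263% in the interaction for ipsilateral embryos). DESeq2 called Hsp90aa1 higher in contralateral twins. In CPM the groups overlapped for all 10 members in each of the 3 comparisons of twins, where 0.282% (contralateral against equatorial), 0.136% (ipsilateral against equatorial) and 0.173% (contralateral against ipsilateral) of genes had groups that did not overlap. In TPM, 2 members were separated. Hsph1 had 95.8 to 122.6 TPM in contralateral and 126.7 to 137.8 TPM in equatorial pairs, and Hsp90aa1 had 1826 to 2191 TPM in contralateral and 1642 to 1799 TPM in ipsilateral pairs. On that scale 0.3% (contralateral against equatorial), 0.091% (ipsilateral against equatorial) and 0.164% (contralateral against ipsilateral) of genes were separated. Neither member passed the exact rank-sum test (adjusted p = 0.680 and 0.685). Both already had the smallest unadjusted p that this test can give with so few pairs (0.002165 and 0.001166), so that it could not decide on them. In intact blastocysts 0 of 9165 genes passed between sites (0% each; 629, 338 and 522 at an unadjusted p under 0.05 in edgeR; DESeq2 called 1, 0 and 0), and Hspa1b had 39.6 ± 34.02 (contralateral, n = 11), 30.8 ± 15.8 (ipsilateral, n = 8) and 25.1 ± 15.2 CPM (equatorial, n = 12). There too the groups overlapped for all 10 members, and for all genes tested other than the 0.0109% separated between contralateral and ipsilateral blastocysts.

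The levels of the HSP90 genes in intact blastocysts followed the number of detected genes. Hsp90aa1 ranged from 1876 to 7227 CPM and Hsp90ab1 from 1208 to 5610 CPM, whereas the twin pairs stayed within 2074 to 3312 and 1494 to 2463 CPM. The Spearman correlation with the number of detected genes was -0.78 for Hsp90aa1 and -0.71 for Hsp90ab1 over the 31 intact blastocysts, and that of Hsp90ab1 with the total count was -0.63. Within sites the values for Hsp90aa1 were -0.96 (contralateral, n = 11), -0.91 (ipsilateral, n = 8) and -0.34 (equatorial, n = 12). The part of depth and RNA quality in these levels was not tested.

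**Figure D4:**
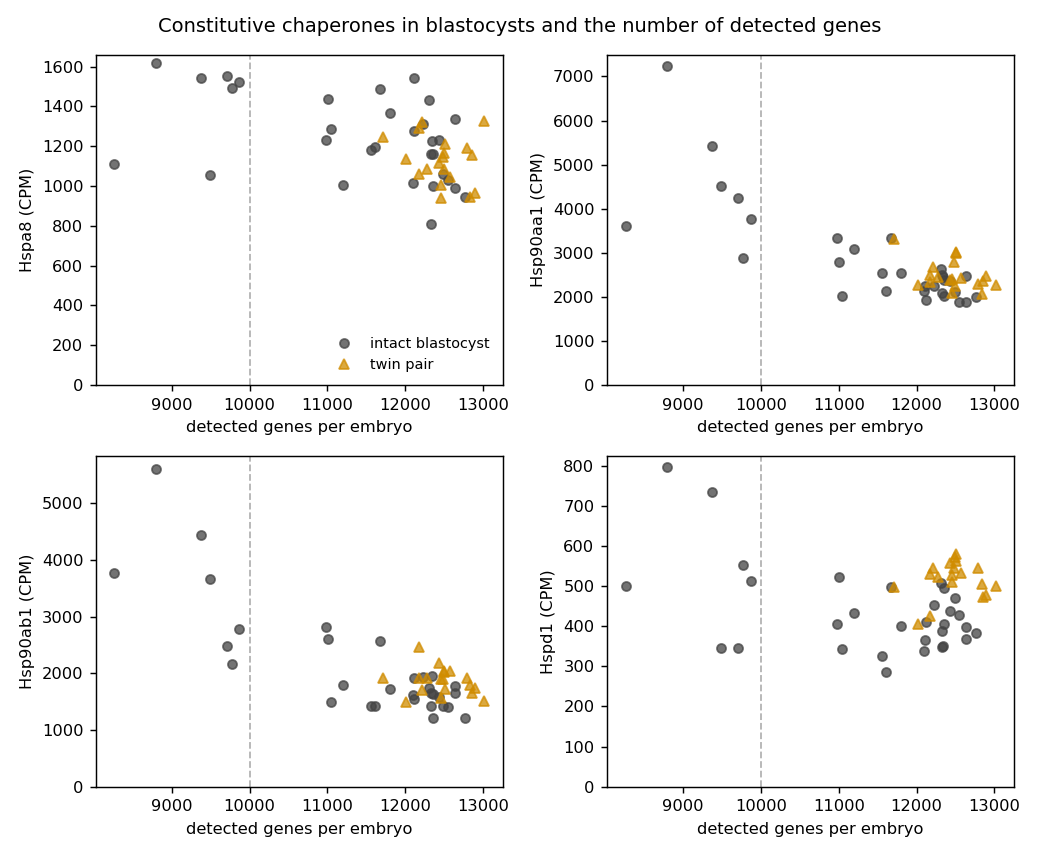
Levels of Hspa8, Hsp90aa1, Hsp90ab1 and Hspd1 in CPM against the number of detected genes in each intact blastocyst (circles) and twin pair (triangles), with a dashed line at 10000 genes. The highest levels of Hsp90aa1 and Hsp90ab1, 7227 and 5610 CPM, belong to an intact blastocyst left of the line.

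Twin blastocysts differ from intact ones in having grown from a blastomere taken out of its embryo and kept alone. In edgeR 3 of 9 members tested were lower in twins, Hspa1b, Hsf1 and Hspa8, and none was higher. Of 9379 genes tested, 42.3% passed (20.4% higher, 21.9% lower). The median log2 fold change of the members was -0.24, against -0.01 for all genes tested. The groups overlapped for all 10 members, where 0.448% of genes had groups that did not. Bisection and culture in isolation cannot be told apart. A pair is the sum of 2 libraries and an intact blastocyst is 1, and with 1 twin per pair Hspa1b (-2.27) and Hspa8 (-0.23) still passed and Hsf1 did not.

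Hspa1b had the largest difference. It was between 0 and 14.9 CPM in twin pairs (median 4.39) and between 0 and 89.8 CPM in intact blastocysts (median 28.97). All 19 twin pairs were below the median of the intact blastocysts, although the ranges overlapped and 3 intact blastocysts were at 0. The log2 fold change was -2.60 (SE 0.42, adjusted p = 8.37e-07), and -2.58 (SE 0.41, adjusted p = 5.85e-07) for the sum of both copies. It kept its direction and passed under every alternative run, the omission of the 7 intact blastocysts under 10000 detected genes (-2.53) included. The level was alike in the 3 sites, with means of 5.17 (contralateral), 5.33 (ipsilateral) and 5.81 CPM (equatorial) in twin pairs. Hspa1a was at 0 in 15 of 19 twin pairs, where a count of 0 allows up to 0.991 to 1.63 CPM, and was not tested.

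Hsf1 had 22.3 to 50.5 CPM in twin pairs (median 36.4) and 4.01 to 116.8 CPM in intact blastocysts (median 45.4). The log2 fold change was -0.58 (SE 0.21, adjusted p = 0.0186), with 18 of 19 twin pairs below the intact median. It no longer passed with 1 twin per pair (-0.57, adjusted p = 0.0539) or in a rank-sum test (adjusted p = 0.0654). Hspa8 had 941 to 1325 CPM in twin pairs (median 1136) and was lower by a small margin (log2 fold change -0.24, SE 0.08, adjusted p = 0.0161). It no longer passed without the 7 intact blastocysts under 10000 detected genes (-0.15, adjusted p = 0.0657) or in a rank-sum test (adjusted p = 0.0767). With library size and detected genes as covariates the direction turned (0.11, adjusted p = 0.657).

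The remaining members did not pass between twins and intact blastocysts in the edgeR fit over all embryos with ICSI site as a term and no depth covariates. Without the site term 1 of them passed. For Hspd1 all 19 twin pairs, at 405 to 580 CPM, were above the intact median of 405 CPM, while the log2 fold change of 0.14 did not pass (adjusted p = 0.246). Without the 7 intact blastocysts under 10000 detected genes it was 0.28 and passed (adjusted p = 0.000483). A rank-sum test on mean TPM also called Hspd1 higher in twins (0.23, adjusted p = 0.000324). In the same test Hsp90aa1 (-0.21, adjusted p = 0.873) and Hsp90ab1 (-0.21, adjusted p = 0.739) did not pass. With library size and detected genes as covariates in edgeR both HSP90 genes turned to higher in twins, and more members were called. Hspe1 had medians of 247 CPM in twin pairs and 235 in intact blastocysts, Hsph1 of 305 and 263, and Dnajb1 of 116.003 and 129.05.

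Markers of other kinds moved with this comparison. The maternal markers summed to 330.2 to 682.8 CPM in twin pairs and 0 to 402.5 CPM in intact blastocysts, the epiblast markers to 227.1 to 451.0 and 24.04 to 276.8 CPM, and the trophectoderm markers to 2994 to 3724 and 2957 to 6377 CPM. Dppa3 was the only maternal marker with enough counts to be tested in this comparison, and it was higher in twins (log2 fold change 2.79, adjusted p = 6.71e-09 in edgeR). The sum of these markers in blastocysts thus says little of Gdf9, Bmp15, Zp3 and Nlrp5, and does not show that twins kept more maternal RNA. Of the trophectoderm markers Cdx2 was higher (1.41), while Eomes (-1.08), Gata3 (-0.68) and Tfap2c (-1.34) were lower. Krt8 and Krt18 did not pass. All 4 epiblast and all 6 trophectoderm markers had counts in both kinds. Their part in the lower Hspa1b was not tested.

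Among the further chaperones, 96 were tested between twins and intact blastocysts, of which 23 were higher and 21 lower. Of all genes tested, 20.4% were higher and 21.9% lower. Of 27 co-chaperones 10 were higher and 1 lower, and the others did not pass. Among the higher ones were Stub1, the ubiquitin ligase that acts on HSP70 clients (189.5 ± 30.8 against 83.3 ± 44.9 CPM, log2 fold change 1.13), Stip1, which passes clients from HSP70 to HSP90 (0.68), Bag1 (0.66), Fkbp8 (0.65) and Fkbp4 (0.46), and the J-domain gene Dnajc11 had 0.73. Ptges3 was the lower one (-0.75). With library size and detected genes as covariates Stub1 (-0.16) and Fkbp8 (-0.27) turned, and Stip1, Bag1, Fkbp4, Dnajc11 and Ptges3 no longer passed. Of 9 chaperones of the endoplasmic reticulum 6 were lower and 1 higher, with Calr at -0.99, P4hb at -0.87 and Canx at -0.76. The HSP70 and HSP90 of that compartment, Hspa5 (-1.30) and Hsp90b1 (-1.12), were lower too. Canx and Hsp90b1 no longer passed with those covariates. Of 8 further HSP70 genes 5 were lower and 1 higher.

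Sister blastomeres were compared within each of the 55 embryos, since the study asked how alike they are. The letters a and b of the sisters carry no order, and between them 0 of 10 members passed (0% of 9810 genes in edgeR, 464 at an unadjusted p under 0.05). The size of the difference, the absolute log2 ratio of the sisters, differed greatly between members. It was smallest for Hspe1 (median 0.18), Hsp90aa1 (0.21) and Hsp90ab1 (0.24), where 0, 0 and 2 of 55 pairs differed by more than 2-fold. It was largest for Hspa1a (median 1.08, with 29 pairs over 2-fold) and Hspa1b (0.73, 13 pairs). Hsph1 (0.46, 14 pairs) and Dnajb1 (0.49, 9 pairs) lay between them. All genes tested had a median of 0.89.

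**Figure D5:**
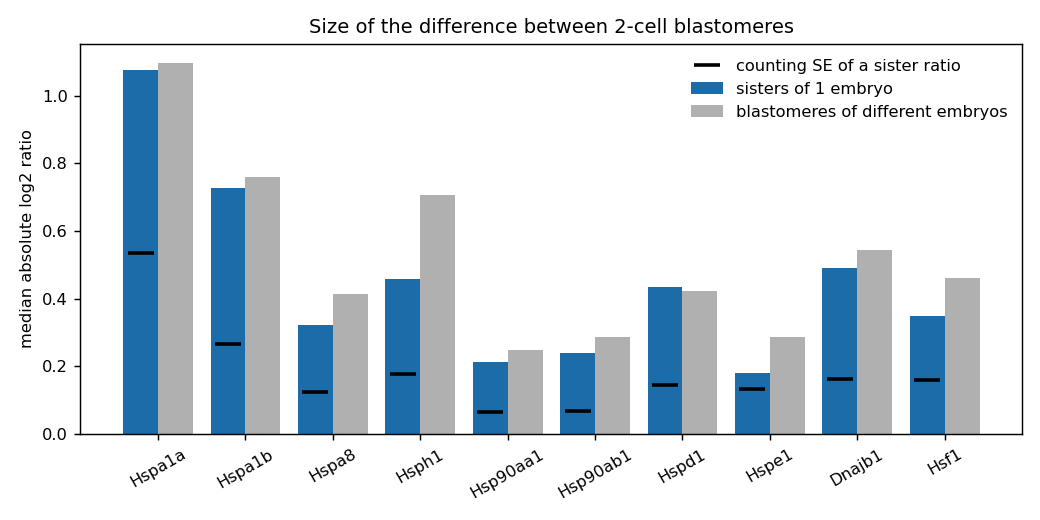
Median absolute log2 ratio of each member between the sister blastomeres of a 2-cell embryo (blue bars, 55 pairs) and between blastomeres of different embryos (grey bars), with black marks at the median counting error of a sister ratio. Hspa1a has the widest ratios between sisters (median 1.08) and Hspe1 the narrowest (0.18).

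The error expected from counting alone was largest for the members with few counts. The median counting error of the ratio was 0.53 for Hspa1a and 0.27 for Hspa1b, against 0.06 for Hsp90aa1 and 0.13 for Hspe1. Blastomeres of different embryos had median ratios of 1.10 for Hspa1a and 0.76 for Hspa1b, close to those of sisters (1.08 and 0.73). For Hsph1 sisters were nearer to each other (0.46) than blastomeres of different embryos were (0.71), as they were for Hspe1 (0.18 against 0.29) and Hsf1 (0.35 against 0.46), but not for Hspd1 (0.43 against 0.42). These are descriptions over 55 pairs with no test. No member passed in the test of the size of the sister difference between sites, which does not show equal sizes. There limma called 0.393% (contralateral against equatorial), 0.418% (ipsilateral against equatorial) and 0% of 11712 genes. In twins, whose pairs are the blastocysts of former sisters, the median absolute log2 ratio was 0.12 for Hsp90aa1 and 0.60 for Hsf1, with 0 and 4 of 19 pairs over 2-fold, against 0.47 for all genes tested. Twins of a pair were further apart than twins of different pairs for Hspd1 (0.27 against 0.19), Hsf1 (0.60 against 0.50) and Dnajb1 (0.45 against 0.34). They were nearer to each other for Hspa8 (0.16 against 0.18), Hsp90aa1 (0.12 against 0.16) and Hsp90ab1 (0.12 against 0.19). The same held for Hspe1 (0.14 against 0.19) and Hsph1 (0.24 against 0.26).

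Across 2-cell embryos the members did not rise and fall as 1 group. The highest Spearman correlations over 55 embryos were those of Hspa1a with Hspa1b (0.43), Hsp90aa1 with Hsp90ab1 (0.42) and Hspa1b with Hsph1 (0.38). Hsf1 had 0.30 with Hspa1a, -0.16 with Hspa1b, 0.33 with Hsp90ab1 and -0.09 with Dnajb1. Hspd1 and Hspe1, which share their promoter, had 0.07. All points share the library chemistry, and Hsp90ab1 and Hsf1 also share their relation with the mitochondrial share.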

How the data were processed

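RNA of single blastomeres and single blastocysts was made into cDNA with the SMART-Seq Single Cell Kit and into libraries with Nextera XT, and sequenced on a NovaSeq instrument. Per the submitters' processing notes the authors used Trimmomatic (039), FastQC (0.12.1) and STAR (2.7.10b) with the mouse genome GRCm38/mm10, counting reads per GENCODE gene without strand. The deposited values are whole-number counts per gene. In all 4035625 blastomere and 2227665 blastocyst entries they equalled the matrix in which identical reads had been collapsed. The tables held 125 blastomeres and 69 blastocysts, and the labels state that 25 further blastomeres failed quality control. These are not all the losses, since the study reports more blastomeres at the start, in equal numbers of pairs per site. Of those pairs, 21 contralateral, 21 ipsilateral and 13 equatorial ones were used here. Whether the uneven loss bears on the comparisons of sites was not tested. Blastomeres of plate 1 had longer, paired reads that the authors cut to first reads of the length used on plate 2. All blastocysts had single-end reads of that length and were taken as plate 2, although their column labels name no plate.

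Counts of sisters were added for the 55 pairs in which both had at least 9500 detected genes (7 blastomeres had fewer), and for the 19 twin pairs. Genes were tested with edgeR's quasi-likelihood test (edgeR 4.0.16, limma 3.58.1, R 4.3.3; TMM normalization, filterByExpr, robust fit) with Benjamini-Hochberg adjustment over all genes tested and a threshold of 0.05, two-sided. Plate was a covariate in fits with 2-cell embryos, and the ICSI site in the comparison of twin and intact blastocysts. The sizes of sister differences were tested with limma on absolute log2 ratios of CPM + 1. CPM used TMM library sizes where fitted and total counts where printed, and TPM used exonic lengths (32235 of 32285 genes). Counting limits cover counting error only. The code of the edgeR, DESeq2, limma and rank-sum tests was tried on simulated data with 200 changed genes.

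Named are all 10 members, up to 6 called genes per direction and comparison from the further lists with the smallest adjusted p, and the 5 genes most alike to Hspa1a and to Hspa1b. The members and lists were chosen with earlier results of these data known. Promoters come from RefSeq (GRCm38.p6), and shared words from the reference transcripts. Alternatives were DESeq2 (1.42.0), RLE size factors, no filter on low counts, depth, detected genes or mitochondrial share as covariates, 1 plate, 48 or 62 pairs, 1 twin per pair, single twin pairs left out, and a rank-sum test on TPM with 100000 permutations or exact enumeration. Levels were also checked against cumulus cell, maternal, trophectoderm, epiblast and primitive endoderm markers; those of primitive endoderm summed to 58.5 to 569.0 CPM in intact blastocysts and 280.9 to 480.6 CPM in twin pairs.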

Additional observations from a re-analysis of the deposited data

Results flagged for a closer look

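Within groups of 4 to 10 embryos, 8 of 40 combinations of member and group held an embryo far from the others by Dixon's criterion, which chance alone meets in about 1 of 20 groups. The ipsilateral intact blastocysts held 3 of them. The highest level of Hsp90aa1, 3330 CPM (nearest embryo 2537), and the highest of Hsp90ab1, 2564 CPM (nearest 1730), came from the same embryo. The lowest level of Hspe1 in that group was 158.7 CPM, with the nearest at 202.2. Among twin pairs, Hspa1a had 2.71 CPM in 1 contralateral and 0.323 CPM in 1 ipsilateral pair, with all other pairs of those groups at 0, where any count meets the criterion by construction, so that these 2 say nothing beside the chance rate and 6 remain. Dnajb1 had 73.9 CPM in 1 contralateral pair, below the other pairs of that group. The highest Hsp90aa1 level among equatorial pairs was 2672 CPM, above the nearest at 2297, and Hsf1 had 25.0 CPM in 1 ipsilateral pair, below the nearest at 39.7. The cause of these values was not tested.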

How the results depend on the processing

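No paired analysis was possible because the sites and kinds of embryo compared share no embryo numbers, while sisters and twins were compared within their embryo. Of the counts of members called, 140 stayed within 1.5 times of the reported count under the alternatives and 7 moved. Many of the 140 belong to comparisons in which no member and few or no genes passed at all. Such counts had little room to move, so that the 140 overstate how stable the calls are. Contralateral against equatorial 2-cell embryos went from 2 to 1 with the mitochondrial share as a covariate and to 4 in the rank-sum test, which added Hsp90aa1 and Hspd1. Ipsilateral against equatorial went from 2 to 0 with library size and detected genes as covariates and to 1 with the 48 pairs of low mitochondrial share. Contralateral against equatorial twins went from 0 to 1 (Hsp90aa1) by DESeq2, and twin against intact blastocysts from 3 to 1 with every gene with a count and to 5 with the depth covariates. Leaving out 1 twin pair at a time gave 0 members in every case. The depth covariates turned Hspa8 (0.11), Hsp90aa1 (0.51) and Hsp90ab1 (0.79), Stub1 (-0.16) and Fkbp8 (-0.27) in twins against intact blastocysts, the last 2 of these genes being co-chaperones. Leaving out the 7 intact blastocysts under 10000 detected genes turned Hsp90ab1 (0.036). The depth covariates also took the sum of Hspa1a and Hspa1b between the stages to 0.49. The cause was not tested, and these covariates follow the kind of embryo closely. For single members, 175 values kept their direction and their side of the threshold, 16 fell short of it, 6 newly passed and 4 turned. For the further genes, 347 kept both, 53 fell short and 2 turned.

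Counts of all genes called moved more. Without a filter, 1577 genes passed between contralateral and ipsilateral 2-cell embryos in place of 0, 3930 in place of 1733 between contralateral and equatorial and 2603 in place of 874 between ipsilateral and equatorial, 6385 in place of 3967 between twin and intact blastocysts, and 16044 in place of 9821 between the stages. With the depth covariates 61 passed in place of 874 (ipsilateral against equatorial) and 1097 in place of 3967 (twin against intact, 35.4% of them higher in place of 48.1%), and with the mitochondrial share as a covariate 690 and 535 in the polar comparisons. DESeq2 called 61 in place of 30 in the contralateral interaction, with 67.2% of them higher in place of 50%, and 63.5% in place of 52.3% in the ipsilateral one; 48 pairs gave 1104 in place of 1733, and the rank-sum test 1512 in place of 874. The limma counts for sister differences went from 46 and 49 to 5 and 3 with the depth of the shallower sister as a covariate, to 23 and 29 with a pseudocount of 4, and to 24 and 3 on plate 1 alone. The mitochondrial covariate, the omission of the 7 blastocysts and the rank-sum test on mean TPM for twin or 2-cell against intact embryos were chosen after seeing the data, as were the overlap in TPM and the omission of the library of the highest Hspa1a count; the planned rank-sum test on added TPM was not run for these 2, since it sets 2 libraries against 1. Depth limits Hspa1a most, with 21 counts in all intact blastocysts.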
